A study of Canis lupus familiaris with 15 samples.

Results

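The hedgehog pathway genes HHIP, PTCH1, SMO, GLI1, GLI2, GLI3, IHH, SUFU and BOC were followed in primary osteosarcomas of 15 pet dogs. All probesets that carry the symbol of 1 of these 9 genes alone in the platform annotation were taken, whatever their values. This gave 11 probesets of 8 genes, of 42860 probesets and 15115 named genes on the array. HHIP, GLI3 and BOC had 2 probesets each, and GLI2, for which no such probeset was found, was not analysed here. Total RNA of each tumor was hybridized to 1 Affymetrix Canine 2.0 array, and the values are PLIER signals, given here as log2. The tumors were limb osteosarcomas that had not been exposed to chemotherapy, removed by amputation, and all dogs received doxorubicin or a platinum drug afterwards. The disease free interval (DFI) was under 100 days in 8 dogs, the DFI < 100 cohort, and over 300 days in 7 dogs, the DFI > 300 cohort. The dogs were pets of several breeds, among them 4 Greyhounds, and were 4.4 to 13.4 years old. By the study's table of dogs, matched on the dog number, 3 tumors were giant cell, 11 osteoblastic and 1 poorly differentiated. All 3 giant cell tumors belonged to DFI < 100 dogs, so that subtype and cohort are partly the same split. Both tibia tumors were giant cell, which puts 2 of the 5 radius and tibia tumors and 1 of the 10 humerus and femur tumors in that subtype. The tumors lay in the humerus (6 dogs), radius (3), femur (4) and tibia (2).

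Hedgehog ligands are secreted proteins that direct the growth of embryonic tissues and, in the growth plate, the ripening of cartilage into bone. Without ligand the receptor PTCH1 holds the membrane protein SMO inactive. With ligand SMO is released, and the GLI transcription factors, which SUFU restrains, switch on targets that include PTCH1, GLI1 and HHIP themselves. HHIP is a decoy that binds ligand at the cell surface and thereby limits the pathway, while BOC is a coreceptor that helps ligand reach PTCH1.

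The scale on which these genes can be read is set by 64 reporter control probesets, made for sequences foreign to the dog. The 95th percentile of these controls was 6.53 to 7.12 across the arrays, with a mean of 6.79, and a value below it cannot be told apart from the brighter controls. The median of the controls averaged 2.66. All 11 hedgehog probesets had a mean below the 95th percentile, as did 66.1% of all probesets on the array. Of the 165 single values, 6 were above the 95th percentile of their own array (3.64%), against 34.3% of the values of all probesets. The 6 values came from HHIP, BOC and GLI3 in 4 dogs, and 4 values were left without dog 208911 and likewise without dog 173175. Whether a low value reflects little RNA or a probeset that works poorly was not tested. Osteoblast genes were bright in the same arrays, with 6 of 9 measured above the control level and COL1A2, COL1A1 and SPP1 the highest. As in any whole tumor sample, fewer cells of a type and less RNA per cell cannot be told apart.

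**Figure D1:**
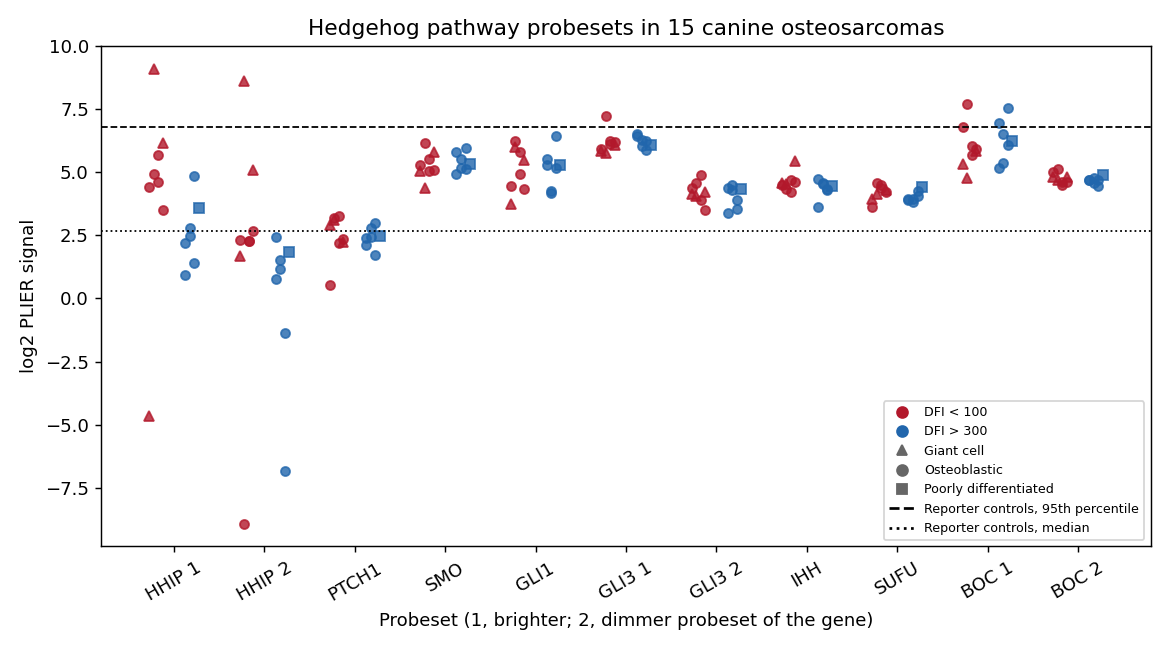
Log2 PLIER signal of the 11 hedgehog probesets (horizontal axis) in each of 15 tumors, with color for cohort and shape for subtype; the dashed and dotted lines mark the mean, over arrays, of the reporter controls' 95th percentile and median. Most points lie below the dashed line at 6.79, and the HHIP values spread over the widest range.

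IHH (Indian hedgehog) is the ligand of the growth plate, made by cartilage cells that are about to enlarge. Its signal in the DFI < 100 dogs ran from 4.23 through a median of 4.56 to 5.47, and in the DFI > 300 dogs from 3.61 through 4.46 to 4.74. No dog was above the control level. Dog 204714, a giant cell tumor of the tibia, was the highest at 5.47, and dog 190030, an osteoblastic tumor of the humerus, the lowest at 3.61.

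The log2 values of HHIP varied more between dogs than those of any other gene of the group. SDs over the 15 dogs were 3.05 for the brighter probeset and 4.24 for the dimmer one, against 0.18 to 0.85 for the 9 probesets of the other genes. The HHIP SDs include values far below the control median, down to -4.65 and -8.92, the log2 of signals of 0.0399 and 0.00206. They are therefore no measure of variation in HHIP RNA alone. In the 8 DFI < 100 dogs the brighter probeset ran from -4.65 through a median of 4.78 to 9.10. In the 7 DFI > 300 dogs it ran from 0.94 through 2.49 to 4.87. A single dog, 208911, was above the control level, with 9.10 on the brighter and 8.61 on the dimmer probeset, which was 2.36 and 1.87 above the 95th percentile of its own array. The next dog was 204714 at 6.15 and 5.10, below the level on both probesets, and both dogs had giant cell tumors. The third giant cell tumor, of dog 153599, had the lowest value of the brighter probeset, -4.65, and stood at 1.67 on the dimmer one. On the linear scale the brighter probeset had a signal of 550.4 in dog 208911, 0.0399 in dog 153599 and a median of 12.1.

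The 2 HHIP probesets shared their highest dogs but little else. On the linear scale their values were correlated at r = 0.995 over 15 dogs. There dog 208911 had signals of 550.4 and 390.7, and the next dog, 204714, 71.1 and 34.4. The linear r without dog 208911 is not given here. On the log2 scale r was 0.17 (permutation p = 0.495) and rho 0.35 (permutation p = 0.2). Without dogs 153599 and 208911 the log2 correlation was -0.06. The dimmer probeset was at or under the control median in 13 of 15 dogs, and its lowest values, -8.92 in dog 173175 and -6.82 in dog 208513, fell in dogs where the brighter probeset stood at 4.95 and 4.87.

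Dog 208911 was at or near an end of the range in further measures. Its mean over 8 endothelial genes was the highest of the 15 (8.47, range 6.03 to 8.47), and it was the next to highest for 6 osteoclast genes (9.55, range 4.51 to 9.56) and 6 macrophage genes (8.97, range 5.94 to 10.8). Its mean over 5 skeletal muscle genes was the lowest, 3.64, with MYH2 at -5.78, below the control median, and MYH7 at its lowest value, 5.27. ACTA1 (7.42), TNNT3 (6.32) and MB (4.95) were close to their means over the 15 dogs, 7.44, 6.27 and 4.95. How far the 3 prime end of control transcripts outshone the 5 prime end, which grows as RNA degrades, depended on the controls taken. For actin and gapdh this log2 ratio was 2.27 in this dog, rank 4 of 15 (range 1.46 to 2.73). With ef1a added it was 7.84, rank 2 (range 4.08 to 8.03), although the 5 prime ef1a probeset was above the control level in 0 dogs. For a second set of actin and gapdh probesets it was 0.65, rank 2 (range -0.15 to 0.77). The part of these measures in the HHIP value was not tested. Of 28342 probesets at or under the control level by mean, 589 (2.08%) had a highest dog at or above 8.61, and in 120 of these (0.423% of the 28342) that dog alone was above the control level of its array, as for the dimmer HHIP probeset. Of the 589, 40 peaked in dog 208911, against a median of 34 and a range of 10 to 103 over the dogs.

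**Figure D2:**
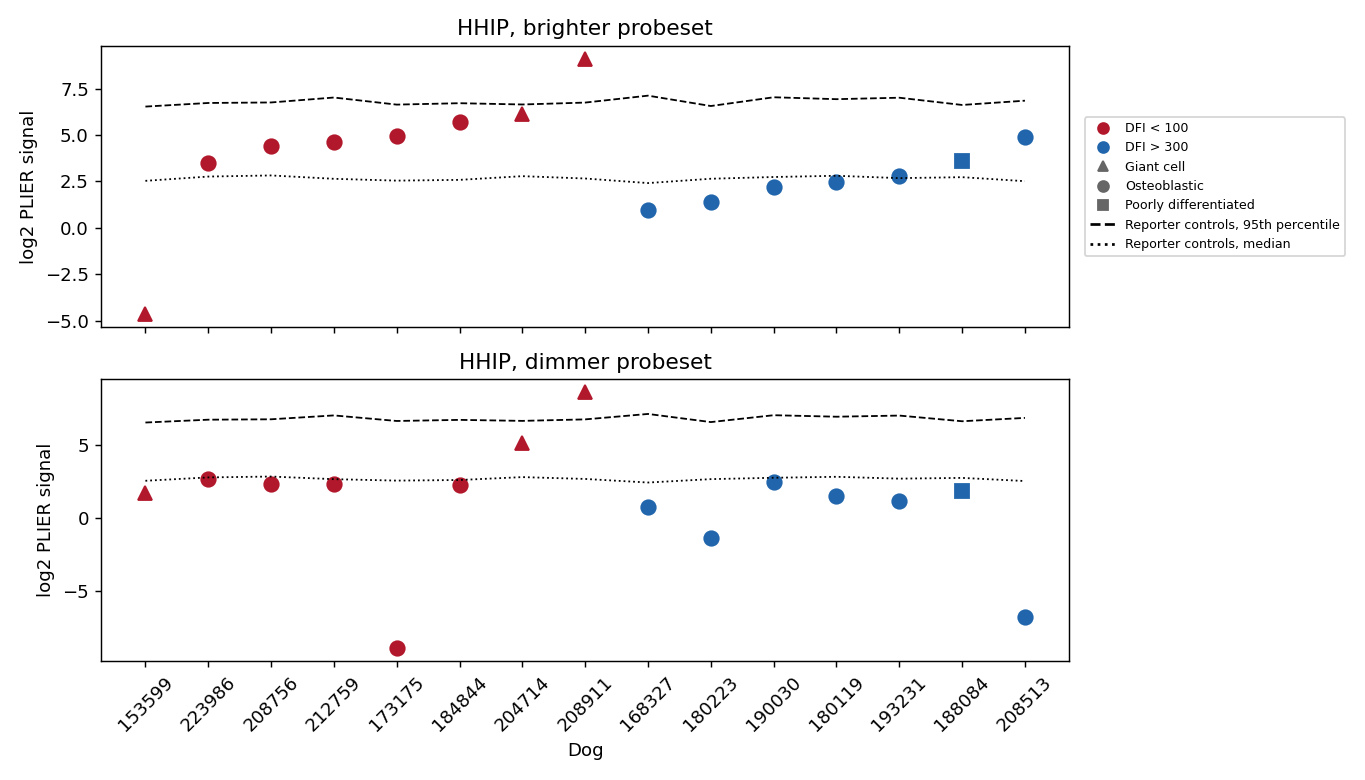
Log2 PLIER signal of the brighter (upper panel) and dimmer (lower panel) HHIP probeset in each dog, ordered by the brighter probeset within each cohort, with the 95th percentile (dashed) and median (dotted) of the reporter controls of the same array. Dog 208911 alone is above the dashed line in both panels, at 9.10 and 8.61.

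PTCH1, the receptor, stood at 2.45 ± 0.69 (SD, n = 15) and was at or under the control median in 10 of 15 dogs. It ran from 0.53 through 2.62 to 3.27 in the DFI < 100 dogs and from 1.73 through 2.44 to 2.98 in the DFI > 300 dogs. The lowest value, 0.53, was that of dog 208756.

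BOC was above the control level of its array in 3 dogs on its brighter probeset. These were dog 173175 at 7.72, dog 208513 at 7.54 and dog 208756 at 6.79, all with osteoblastic tumors and from both cohorts. The lowest dog was 208911 at 4.76, the dog with the highest HHIP. Over all 15 dogs the probeset stood at 6.13 ± 0.85 (SD). The dimmer BOC probeset varied little, from 4.44 to 5.11, and was correlated with the brighter one at r = 0.36 over 15 dogs (permutation p = 0.189).

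SMO, the transducer at the membrane, ran from 4.40 through 5.19 to 6.15 in the DFI < 100 dogs and from 4.95 through 5.34 to 5.97 in the DFI > 300 dogs, below the control level in every dog. Its lowest and highest dogs, 208911 and 173175, were also the lowest and highest for BOC. SUFU, the inhibitor of the GLI factors, stood at 4.13 ± 0.27 (SD, n = 15) with a range of 3.61 to 4.58.

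GLI1, a GLI factor that is itself a target of the pathway, ran from 3.76 through 5.20 to 6.23 in the DFI < 100 dogs and from 4.19 through 5.28 to 6.42 in the DFI > 300 dogs. It was below the control level in every dog. GLI3, which acts mainly as a repressor when ligand is absent, was above the level in dog 173175 (7.22 on the brighter probeset), while the other 14 dogs ran from 5.77 to 6.53. Its dimmer probeset stood at 4.13 ± 0.42 (SD, n = 15), and the 2 GLI3 probesets were correlated at r = 0.10 (permutation p = 0.714).

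The study's own contrast asked whether expression went with the disease free interval. On the brighter HHIP probeset 4 of 8 DFI < 100 dogs were above, and 1 was below, every DFI > 300 dog. The mean was 4.22 ± 3.96 (SD, n = 8) against 2.61 ± 1.33 (SD, n = 7), a difference of 1.61 (SE 1.47) with an adjusted p of 0.999 from limma and p = 0.356 when tested by exact permutation of the dogs (2-sided). The dimmer probeset differed by 2.07 (SE 2.05), with p = 0.361 in the exact permutation test. Single dogs moved these values by over 1.5 times. The brighter probeset's difference was 0.91 without dog 208911 and 2.88 (SE 0.79) without dog 153599. It was 2.19 (SE 0.64) in osteoblastic tumors alone, which leaves out both of these dogs, 1.25 (SE 0.56) when 16 was added to each signal before log2, and 0.83 (SE 1.75) with age as a covariate. The dimmer probeset's difference was 3.63 (SE 1.43) without dog 173175, 0.94 without dog 208513 and 1.12 without dog 208911. It was 0.51 (SE 2.31) in osteoblastic tumors alone, 0.13 (SE 2.37) without Greyhounds, 4.49 (SE 2.19) with age as a covariate and 0.84 with 16 added before log2. All of these kept the sign of the main value, and none passed the adjusted p.

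The other 9 probesets differed by -0.26 to 0.25 between the cohorts. BOC (brighter probeset) differed by -0.26 (SE 0.43), SMO by -0.11 (SE 0.24) and SUFU by 0.15 (SE 0.16). In osteoblastic tumors alone these were 0.15, 0.0070 and 0.26, with age as a covariate -0.81, -0.32 and 0.0057, and without Greyhounds -0.0026, -0.027 and 0.078. With a dog left out BOC ran from -0.51 (without dog 173175) to -0.05 (without dog 208513), SMO from -0.23 to 0.020 (without dog 208911), and SUFU from 0.10 (without dog 173175) to 0.24 (without dog 208756). By limma 0 of 11 hedgehog probesets had an adjusted p under 0.05, as did 0% of all probesets. At an unadjusted p under 0.05 there were 0 of 11 by limma and 0 by the methods' t-test, against 3.68% of all probesets by limma. The count was 1 of 11 in 4 other settings: the brighter HHIP probeset with the offset of 16 (unadjusted p = 0.0429 from limma), in osteoblastic tumors alone (0.00572) and without dog 153599 (0.00268), and the dimmer one without dog 173175 (0.0235). In these settings, in the same order, 1604, 1844, 1568 and 1819 of all 42860 probesets had an unadjusted p under 0.05.

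**Figure D3:**
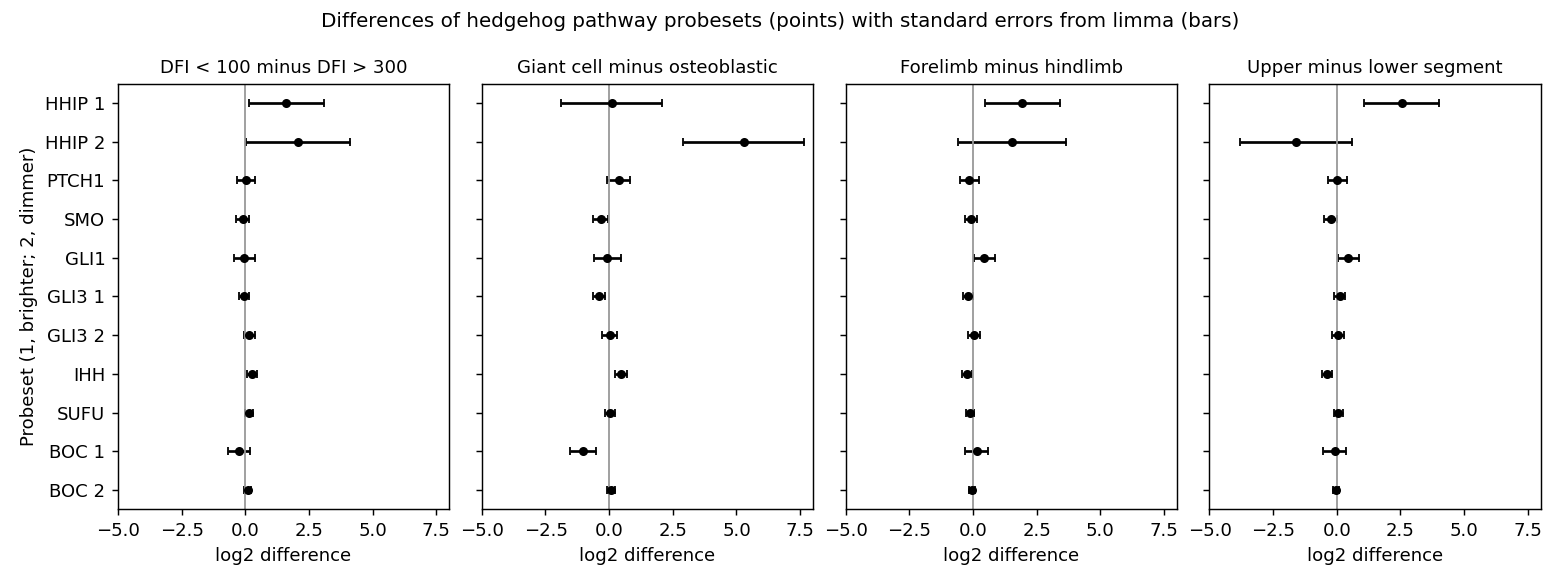
Log2 differences of the 11 hedgehog probesets (points) with standard errors from limma (bars) between cohorts, subtypes, limbs and limb segments. The HHIP bars are the widest in each panel, and no difference shown passed an adjusted p of 0.05.

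Between subtypes the 2 HHIP probesets gave unlike results. On the dimmer probeset the 3 giant cell tumors stood at 1.67, 5.10 and 8.61, and the 11 osteoblastic tumors from -8.92 through 1.52 to 2.67, so that 2 giant cell tumors were above every osteoblastic tumor and 1 was among them. The difference was 5.28 (SE 2.37), with an adjusted p of 0.860 from limma and p = 0.0495 in a 2-sided exact permutation test over 364 splits. It was 3.54 to 7.01 when each giant cell dog was left out in turn, 5.00 within the DFI < 100 cohort, and 1.95 with 16 added before log2. On the brighter probeset the giant cell tumors stood at -4.65, 6.15 and 9.10 and the osteoblastic tumors from 0.94 through 3.50 to 5.68. The difference there was 0.10 (SE 1.98), and it was 4.19 without dog 153599, -2.69 without dog 208911 and 1.61 with 16 added before log2.

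BOC was lower in the giant cell tumors, at 4.76, 5.33 and 5.84 against 5.16 to 7.72 in the osteoblastic tumors, but the groups overlapped and the difference of -1.03 (SE 0.49) had an adjusted p of 0.872 from limma and p = 0.0659 in the exact permutation test. IHH differed by 0.46 (SE 0.24) and was 0.15 without dog 204714, and GLI3 (brighter probeset) differed by -0.38 (SE 0.23). In this contrast 0 of 11 hedgehog probesets passed an adjusted p of 0.05, against 0.00233% of all probesets, and 1 of 11, the dimmer HHIP probeset, had an unadjusted p under 0.05, against 5.68%. The unadjusted count was 0 to 2 over the alternatives, with the brighter HHIP probeset among them without dog 153599 and with the offset of 16, and BOC with ACAN as a covariate, with the trend and robust fit and without dog 204714. Over all probesets the count was 1679 to 2958 in the alternatives that fitted all 42860. Markers of other cell types differed in mean between the subtypes. Higher means in giant cell tumors were seen for 5 of 6 osteoclast genes (median difference 1.81), 8 of 8 endothelial genes (0.74) and 5 of 6 macrophage genes (0.67). Of these genes 0 passed the adjusted p. By the mean over the endothelial genes, only the giant cell tumor of dog 208911, at 8.47, was above every osteoblastic tumor. Dogs 204714 and 153599 stood at 7.32 and 7.03, within the osteoblastic range of 6.03 to 7.51. The part of these marker genes in the HHIP and BOC values was not tested.

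By tumor site, the brighter HHIP probeset was higher in forelimb than in hindlimb tumors by 1.94 (SE 1.47; p = 0.261 in the exact permutation test, n = 9 and 6 dogs). It was higher in the upper segment, humerus and femur, than in the lower segment, radius and tibia, by 2.56 (SE 1.47; p = 0.137 in the exact permutation test, n = 10 and 5). The dimmer probeset differed by 1.54 (SE 2.12) between limbs and by -1.60 (SE 2.20) between segments, the opposite sign. With 16 added before log2 these 4 values were 0.56, 0.67, 0.32 and 0.19, the last with its sign turned. Between segments the brighter probeset's difference was 0.95 (SE 1.19) without dog 153599 and 3.65 (SE 1.45) without dog 204714, and the dimmer one's -0.86 without dog 204714 and -2.58 with ACAN as a covariate. IHH was lower in the upper segment, where all 10 tumors stood at 3.61 to 4.69, against 4.46 to 5.47 in the lower segment. Its difference of -0.39 (SE 0.20) had p = 0.0363 in the exact permutation test and an unadjusted p of 0.0639 from limma that did not pass the adjustment, and it was -0.21 without dog 204714. The 2 giant cell tumors of the lower segment stood at 4.57 and 5.47, and the part of subtype in the IHH difference was not tested. In both contrasts 0 of 11 probesets passed an adjusted p of 0.05, as did 0% of all probesets, and 0 of 11 had an unadjusted p under 0.05, against 4.21% for the limbs and 2.55% for the segments. For the segments 1 of 11 had one with cohort as a covariate (IHH, -0.46), without dog 188084 (IHH, -0.47) and without dog 204714 (the brighter HHIP probeset). In these settings 1241, 1208 and 924 of all 42860 probesets had one. Forelimb tumors had lower means for 6 of 6 osteoclast genes (median difference -1.39) and 6 of 6 macrophage genes (-1.13). Of these genes 0 passed the adjusted p, and 0 osteoclast and 2 macrophage genes had an unadjusted p under 0.05 from limma.

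Cartilage content was read from ACAN (aggrecan), the main proteoglycan of cartilage, which ran from 3.42 through 9.15 to 12.1 and was above the control level in 11 of 15 dogs. As a measure of cartilage it was limited, since ACAN was correlated at r = 0.07 with COL2A1, the collagen of cartilage, and 11 of 16 other cartilage genes had an r above 0 with it (median 0.18). BOC had a slope of 0.155 (SE 0.084) per log2 unit of ACAN, with an adjusted p of 0.745 from limma. The slope was 0.096 (SE 0.088) without dog 173175 and 0.225 (SE 0.068) without dog 208513. Over the 15 dogs its Pearson's r was 0.44 (permutation p = 0.103) and Spearman's rho 0.55 (permutation p = 0.0338), and r was 0.37 without the 2 dogs farthest from the median of ACAN, 212759 and 180119. Dog 173175 was highest for both genes, and dog 208513 combined a high BOC of 7.54 with an ACAN of 5.90. PTCH1 had the opposite sign, with r = -0.47 (permutation p = 0.0755), rho = -0.46 (permutation p = 0.0860) and r = -0.32 without the same dogs. Its slope of -0.13 (SE 0.068) was -0.20 without dog 173175 and -0.084 without dog 208756. IHH had r = 0.25 (permutation p = 0.373) and rho = 0.13 (permutation p = 0.658), with r = 0.50 without them, and its slope of 0.039 (SE 0.043) was 0.012 without dog 204714, 0.014 without dog 190030 and 0.079 without dog 212759. HHIP had r = -0.08 and -0.18 on its 2 probesets (permutation p = 0.778 and 0.532) and rho = 0.04 and -0.16 (permutation p = 0.904 and 0.556). These are 11 relations, and in the limma fit 0 of 11 passed an adjusted p of 0.05, against 0.00233% of all probesets (ACAN's own), and 0 of 11 had an unadjusted p under 0.05, against 7.24%. The unadjusted count depended on the measure of cartilage. With the mean of the cartilage list in place of ACAN it was 1 of 11 (BOC, slope 0.68, SE 0.20, adjusted p 0.335 from limma), and with COL2A1 it was 2 of 11 (IHH, slope 0.053, SE 0.018, adjusted p 0.272, and the brighter HHIP probeset, slope 0.31, SE 0.14, adjusted p 0.459). The count over all 42860 probesets rose too, from 3102 with ACAN to 4187 with the list mean and 4622 with COL2A1. For ACAN the hedgehog count was also 1 of 11 without dog 173175 (PTCH1) and without dog 208513 (BOC), where 3007 and 3220 of all probesets had such a p.

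Among the 55 pairs of hedgehog probesets, 5 had a correlation above 0.5 in size over the 15 dogs. SMO and BOC (brighter probeset) had r = 0.83 (permutation p = 0.00014, adjusted over the 55 pairs 0.00495) and rho = 0.75 (permutation p = 0.00173, adjusted 0.0951). Without dogs 208911 and 173175 r was 0.69, and it was 0.77 within the DFI < 100 cohort and 0.95 within the DFI > 300 cohort. The dimmer HHIP probeset and BOC had r = -0.81 (permutation p = 0.00018, adjusted 0.00495) and rho = -0.68 (permutation p = 0.00656, adjusted 0.180). That relation was weaker, with r = -0.54, without dogs 173175 and 208513. On the linear scale r was -0.31. The brighter HHIP probeset did not show the relation, with r = 0.05 and rho = 0.05 against the same BOC probeset. By Spearman's rho 0 of 55 pairs passed an adjusted p of 0.05. The values of these pairs lie mostly below the control level.

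**Figure D4:**
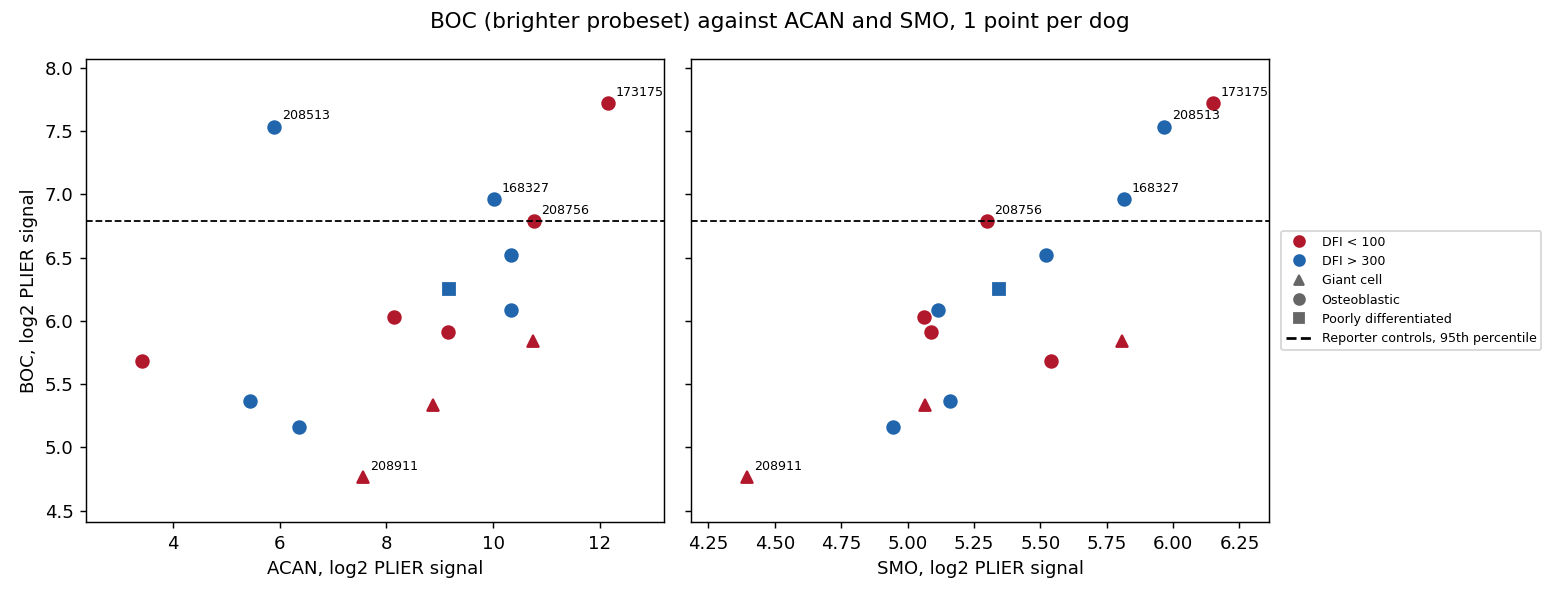
Log2 PLIER signal of BOC (brighter probeset, vertical axis) against ACAN (left) and SMO (right), 1 point per dog, with color for cohort and shape for subtype; the dashed line is the control level at 6.79. BOC and SMO are lowest in dog 208911 and highest in dog 173175, while dog 208513 has a high BOC at an ACAN of 5.90.

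Of 6448 genes with a mean above the control level, the 3 whose values were most like the brighter HHIP probeset over the 15 dogs were ATRX (r = 0.73), WDR5 (r = 0.69) and LOC478576 (r = 0.69). Spearman's rho was 0.36, 0.52 and 0.67 in the same order. All 3 were lowest in dog 153599, as HHIP was, at 6.11, 7.04 and 10.06. The HHIP value of that dog, -4.65, lay below the control median, and how far it sets r was not tested.

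The wider pathway was measured by 56 further genes, given here by role against the control level. Among ligands and proteins listed for ligand release, 2 of 7 were above it, DISP2 (7.05) and SCUBE3 (7.86), of a family that helps lipid-modified ligand leave the cell. Of 4 receptors and coreceptors GAS1 (7.74) was above it. Of 30 proteins of the cilium and of signal transduction 15 were above it, with the kinase CSNK1A1 (11.4), the ubiquitin ligase scaffold CUL3 (10.8) and the protein kinase A subunit PRKAR1A (10.2) the highest in signal, all of them proteins with many other roles. Of 15 targets 6 were above it, among them CCND1 (9.22), BMP2 (8.97) and RAB34 (8.61).

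Between cohorts 23 of the 56 genes had higher and 33 lower means in the DFI < 100 dogs, and 0 passed an adjusted p of 0.05. CUL3 alone, 1 of the 56, had an unadjusted p under 0.05, against 3.68% of all probesets. Its mean was 11.004 ± 0.35 (SD, n = 8) against 10.565 ± 0.39 (SD, n = 7), a difference of 0.44 (SE 0.20). CSNK1A1 differed by -0.34 (SE 0.17) and MGRN1 by 0.26 (SE 0.14). GPC3, a glypican that competes with PTCH1 for ligand, differed by -1.86 (SE 1.07) and SCUBE3 by -1.17 (SE 1.02). Of the 15 targets 13 had lower means in the DFI < 100 dogs, with a median difference of -0.35 against 0.0059 over all probesets, and the count was 11 to 14 when each dog was left out in turn. The targets PTCH1, GLI1 and HHIP are not among these 15. GLI1 shared the direction by sign, at -0.04 (SE 0.41). PTCH1, at 0.04 (SE 0.35), and HHIP, at 1.61 and 2.07 on its 2 probesets, did not. The largest differences among the 15 were those of SFRP1, -1.12 (SE 0.75), PTHLH, -0.88 (SE 0.72), FOXC2, -0.60 (SE 0.43), and BMP2, -0.58 (SE 0.35), of which PTHLH and FOXC2 were chosen after their values were seen. Mean signals of SFRP1 (4.76), PTHLH (5.87) and FOXC2 (3.09) lay below the control level. BCL2 differed by -0.35 (SE 0.23). Lower means were also found for 7 of 8 smooth muscle and pericyte genes (median -0.39), of which 0 passed the adjusted p. The part of these genes in the targets' values was not tested. In the other contrasts 0 of 56 passed an adjusted p of 0.05, and 1 (subtype), 3 (limb), 0 (segment) and 4 (ACAN) had an unadjusted p under 0.05. The shares of all probesets were 5.68% (subtype), 4.21% (limb), 2.55% (segment) and 7.24% (ACAN).

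**Figure D5:**
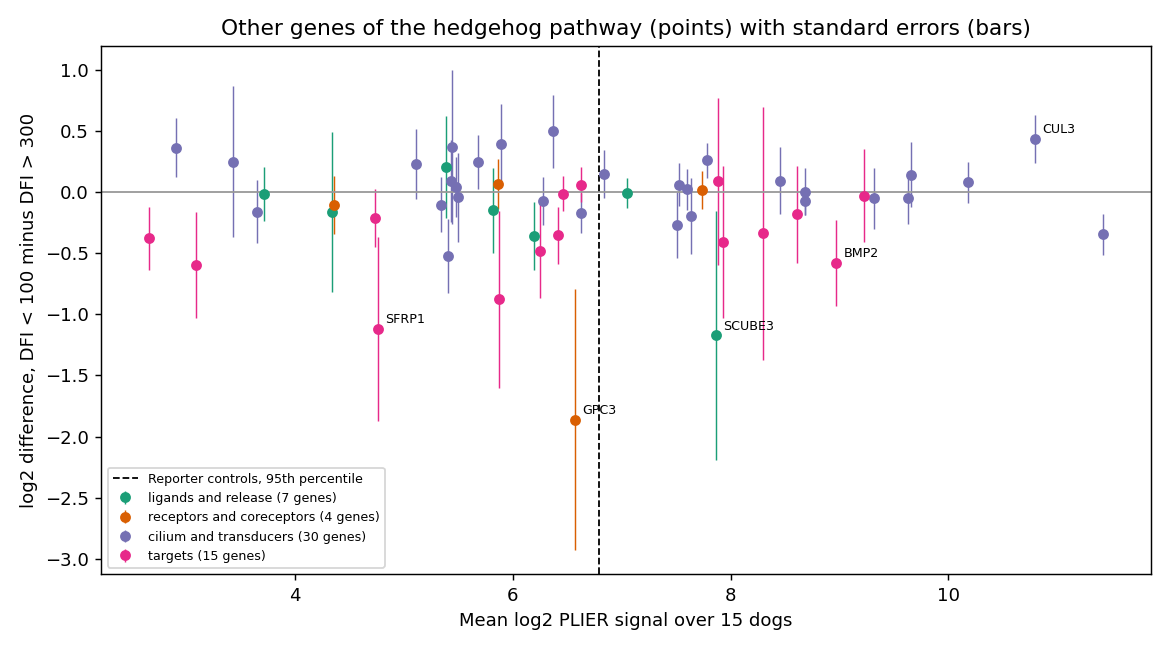
Log2 difference between cohorts (vertical axis) against the mean log2 PLIER signal (horizontal axis) of 56 further pathway genes, colored by role, with standard errors from limma; the dashed line is the control level at 6.79. Of the 15 targets 13 lie below 0, and 0 of the 56 differences passed an adjusted p of 0.05.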

How the data were processed

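Per the labels, total RNA of 15 canine osteosarcomas was hybridized to Affymetrix Canine 2.0 arrays. The authors used RNA of high integrity, ran the arrays in batches, and summarized probes with PLIER in Affymetrix Expression Console (no version stated). The deposited table holds 1 linear intensity per probeset and array. Which array belonged to which batch, and any normalization of probes before PLIER, is not given in the sources used here. Values within batches could therefore not be had. Precision was limited by the number of arrays.

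Cohorts came from the sample labels, and subtype and site from the study's table of dogs. Of 43035 probesets, 111 Affymetrix and 64 reporter controls were left out, and log2 was taken with no offset. Group differences were fitted in R 4.3.3 by limma 3.58.1 (lmFit, eBayes, 2-sided), with Benjamini-Hochberg adjustment over 42860 probesets, and with exact permutation tests over dogs in Python 3.11.15 with scipy 1.17.1. Correlations had 100000 permutations. P-values measure the spread between dogs. A gene was represented by its probeset with the highest mean. All probesets of the 9 genes are accounted for, and other pathway genes were named by the 3 highest signals and the 3 smallest cohort p in each role. The members and lists were chosen with earlier results of these data known. The limma step was tested on simulated data. Alternatives were quantile normalization, an offset of 16 before log2, a fit to probesets above the control level alone, a trend and robust fit, the methods' t-test, age, cohort or ACAN as covariates, osteoblastic tumors or DFI < 100 dogs only, no Greyhounds, other measures of cartilage, other control levels and single dogs left out. Leaving out dogs for the control level count and for the pathway targets, and the definitions of the 3 prime to 5 prime ratio, were chosen after seeing the data. The ratio was first taken with spike-in controls included, then without them, then without ef1a, and the 3 definitions without spike-ins are reported. Permutation p-values for the pairs of hedgehog probesets were also added after seeing the data.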

Additional observations from a re-analysis of the deposited data

Results flagged for a closer look

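In 7 of 22 groups, each 1 hedgehog probeset in 1 cohort, the highest or lowest dog lay apart by Dixon's rule for the gap over the range. That rule flags about 5% of groups by chance where values are normally distributed, which log2 values of very low signals need not be. The share flagged over all probesets is not given here, so the count cannot be read as particular to these genes. On HHIP, dog 153599 was low on the brighter probeset (-4.65, against 3.50 to 9.10 in the other DFI < 100 dogs). Dog 173175 was low on the dimmer probeset (-8.92, against 1.67 to 8.61), as was dog 208513 of the DFI > 300 cohort (-6.82, against -1.37 to 2.45). PTCH1 was low in dog 208756 (0.53, against 2.19 to 3.27). These 4 values lie below the median of the reporter controls. GLI3 was high in dog 173175 on the brighter probeset (7.22, against 5.77 to 6.23), above the control level of that array. IHH was high in dog 204714 (5.47, against 4.23 to 4.69) and, in the DFI > 300 cohort, low in dog 190030 (3.61, against 4.31 to 4.74). The high HHIP values of dog 208911 did not meet this rule.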

How the results depend on the processing

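No hedgehog probeset passed an adjusted p of 0.05 in any contrast under any alternative run, and with only probesets above the control level none was left to test. Over all probesets, 2 passed between cohorts without Greyhounds (0 with them). Between subtypes 1 passed, 0 under quantile normalization, with an offset of 16, with dim probesets left out, or with a trend and robust fit, 4 within the DFI < 100 cohort, and 4 to 14 with a giant cell dog left out. Between segments the count was 0 to 1 with a dog left out. For ACAN 1 passed, 2 with the mean of the cartilage list in its place, and 1 to 3 with a dog left out. The sign turned for SMO (0.0070) and BOC (0.15) between cohorts in osteoblastic tumors, for the brighter HHIP probeset between subtypes under quantile normalization (-0.43) and within the DFI < 100 cohort (-1.10), and for the dimmer one between segments with an offset of 16 (0.19). With a dog left out, SMO ran from -0.23 to 0.020 between cohorts and the brighter HHIP probeset from -2.69 to 4.19 between subtypes. The cause was not tested. Of the 165 values, 0 were above the maximum of the controls and 137 above their median, and 4 to 6 were above the 95th percentile with a dog left out. The maximum averaged 13.4 and only 1 control had a mean above 10, so the count of 0 says little about these genes. No paired analysis was possible because each dog gave 1 array and the labels share no replicate numbers between cohorts.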
